A study of Mus musculus with 12 samples.

Results

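The integrated stress response was followed here through 10 genes: Eif2ak4, which encodes the uncharged-tRNA sensor GCN2, the transcription factors Atf4, Atf5, Ddit3 and Atf3, and the outputs Trib3, Chac1, Asns, Sesn2 and Fgf21. They are named as core genes of the pathway, and are 10 of the 24062 gene symbols counted in the series. RNA-seq was read from 12 mice, 1 library each. It served to ask what 21 days without dietary tryptophan (Trp) did in 2 MYC-linked mouse models of liver cancer. The samples were tumor-bearing livers and xenograft tumors. For MYC-ON livers on the No-Trp diet the study reported fewer and smaller tumors. How much of each liver library came from tumor cells was not measured. The 6 MYC-ON livers came from male FVB mice carrying LAP-tTA and TRE-MYC, a tet-off pair in which the liver-active LAP promoter drives tTA and the human MYC transgene is on once doxycycline is withdrawn at birth. Of these mice, 101, 102 and 103 ate the control diet, which the labels call complete, and 105, 107 and 108 ate the diet without Trp. The 6 xenografts grew under the skin of female NOD SCID hosts (NOD-SKID in the labels) after injection of HCC53N, a single mouse line from p53-deleted liver tumors with mutant NRAS whose labels also give the cancer cells as FVB MYC ON. Hosts 40, 41 and 43 had the control diet, and hosts 35, 36 and 37 were fed without Trp. NOD SCID hosts lack mature B and T cells but keep myeloid cells, fat and vessels, and host RNA of the same species is counted with tumor RNA. All groups carried a MYC label, so no wild-type liver enters these comparisons, and within the xenografts every tumor is the same line.

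When an amino acid runs short, uncharged tRNA activates GCN2, which phosphorylates the initiation factor eIF2. Most translation then slows, while the mRNAs of ATF4, ATF5 and CHOP (the Ddit3 product) are translated better through their upstream open reading frames. ATF4, with C/EBP partners, turns on genes for amino acid synthesis, transport and tRNA charging, and CHOP and TRIB3 act as feedback and death-linked factors. In the liver the pathway also drives FGF21, a hormone secreted in fasting and protein restriction. GCN2 activity and ATF4 amount are set on proteins, so the mRNA values below do not measure either.

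ATF4 binds with C/EBP proteins at a composite element, searched here as TGATGNAA on both strands. RefSeq promoter windows on GRCm38.p6, from 250 bases before to 50 bases after an annotated start, were available for all 10 genes, and 5 of them (Chac1, Trib3, Asns, Fgf21 and Atf3) had a match, against 4.51% of the 27025 genes with a window and 3.97% of 32851 windows. In Trib3 the match, TTACATCA, lay in the 50 bases after the start. The other 4 promoters are printed up to the base before the start because the diet values of their genes differed in sign and size. Each reads 5′ to 3′ along the gene's own strand with the match in capitals. They are Chac1 (chr2:119350992-119351241, + strand), Asns (chr6:7693210-7693459, − strand), Fgf21 (chr7:45615491-45615740, − strand) and Atf3 (chr1:191183334-191183583, − strand).
Chac1: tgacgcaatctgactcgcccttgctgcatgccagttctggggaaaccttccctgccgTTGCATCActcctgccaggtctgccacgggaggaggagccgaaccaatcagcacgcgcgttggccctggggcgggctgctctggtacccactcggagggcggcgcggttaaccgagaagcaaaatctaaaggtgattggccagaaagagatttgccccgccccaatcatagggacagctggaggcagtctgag
Asns: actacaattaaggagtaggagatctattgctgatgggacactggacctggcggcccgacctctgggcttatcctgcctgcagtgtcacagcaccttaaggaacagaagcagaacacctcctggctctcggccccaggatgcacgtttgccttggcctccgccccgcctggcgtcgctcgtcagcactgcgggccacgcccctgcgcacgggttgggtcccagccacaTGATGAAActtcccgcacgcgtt
Fgf21: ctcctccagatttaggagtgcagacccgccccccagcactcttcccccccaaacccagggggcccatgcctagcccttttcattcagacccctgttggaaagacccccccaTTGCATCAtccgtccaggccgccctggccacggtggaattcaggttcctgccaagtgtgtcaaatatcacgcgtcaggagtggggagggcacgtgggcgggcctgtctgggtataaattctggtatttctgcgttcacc
Atf3: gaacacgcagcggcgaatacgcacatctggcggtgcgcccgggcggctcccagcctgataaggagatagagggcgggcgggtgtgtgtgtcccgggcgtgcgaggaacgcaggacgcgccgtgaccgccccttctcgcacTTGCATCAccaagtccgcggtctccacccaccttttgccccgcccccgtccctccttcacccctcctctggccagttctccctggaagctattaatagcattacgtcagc
The match began 193 bases before the start in Chac1, 23 in Asns, 139 in Fgf21 and 110 in Atf3. In Chac1, Fgf21 and Atf3 the 8 letters were the same, TTGCATCA, which is TGATGCAA on the opposite strand, while Asns had TGATGAAA on its own strand. Eif2ak4, Atf4, Atf5, Ddit3 and Sesn2 had no match, which says only that these letters are not in their windows.

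Library depth was 14660963 to 26085349 reads on genes. Values are CPM, reads on a gene per unit of library size after TMM scaling. A gene was called changed when its edgeR adjusted p was 0.05 or less and its fold change, on the log2 scale, was 1 or more in either direction. Trp53 stood at 17.5 to 22.8 CPM in the xenografts and 46.7 to 133 CPM in the livers, and Nras at 232 to 483 CPM against 46.7 to 105 CPM. The human MYC transgene has no row of its own. The hepatocyte markers were all measured in the livers, but all 10 were called lower in xenografts than in livers on the control diet, with a summed level of 528 to 1774 CPM in control xenografts. Liver library 101 gave 12.1% of its reads to the ribosomal transcript Rn45s, against 2.22% in 102 and at most 0.758% elsewhere. The deposited names of libraries 101, 108, 41 and 43 carry a mark of resubmission. Nothing in the labels links animals across diets, and each value comes from a different mouse.

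In the MYC-ON livers, 4 of the 10 genes were called higher on the No-Trp diet (Atf5, Trib3, Sesn2 and Fgf21) and 0 were called lower. Across all 14122 genes tested, 9.28% were called higher and 7.27% lower. Of the 10 genes, 4 stood higher in every No-Trp liver than in every control liver and 2 (Eif2ak4 and Asns) stood lower in every one, where 23.6% and 25% of all genes did so. The median log2 fold change of the 10 genes was 0.20, and that of all genes tested −0.00309. With raw library totals instead of TMM scaling, the 1311 higher and 1026 lower calls became 732 and 1532, and Trib3 and Sesn2 lost their calls (Trib3 at 2.27 with an edgeR adjusted p of 0.0571, Sesn2 at 0.999, just under the fold threshold). In the HCC53N xenografts none of the 9 genes that could be tested was called by edgeR's quasi-likelihood test, where 0.245% of 14704 genes were called higher and 0.116% lower. At an unadjusted p under 0.05 there were 4 (Chac1, Trib3, Asns and Sesn2), all with a higher mean on the No-Trp diet, where 16.9% of all genes tested passed that level in either direction. DESeq2 called these 4 higher, while calling 1.28% of all genes with a count higher and 0.666% lower. Asns and Sesn2 were higher in every No-Trp xenograft than in every control xenograft and no gene was lower in every one, against 10.7% and 11.8% of all genes. The 9 genes had a median log2 fold change of 0.75, and all genes tested one of −0.00449. The 36 higher and 17 lower calls over all genes became 60 and 11 with library totals. The plot of edgeR changes shows both models side by side.

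**Figure D1:**
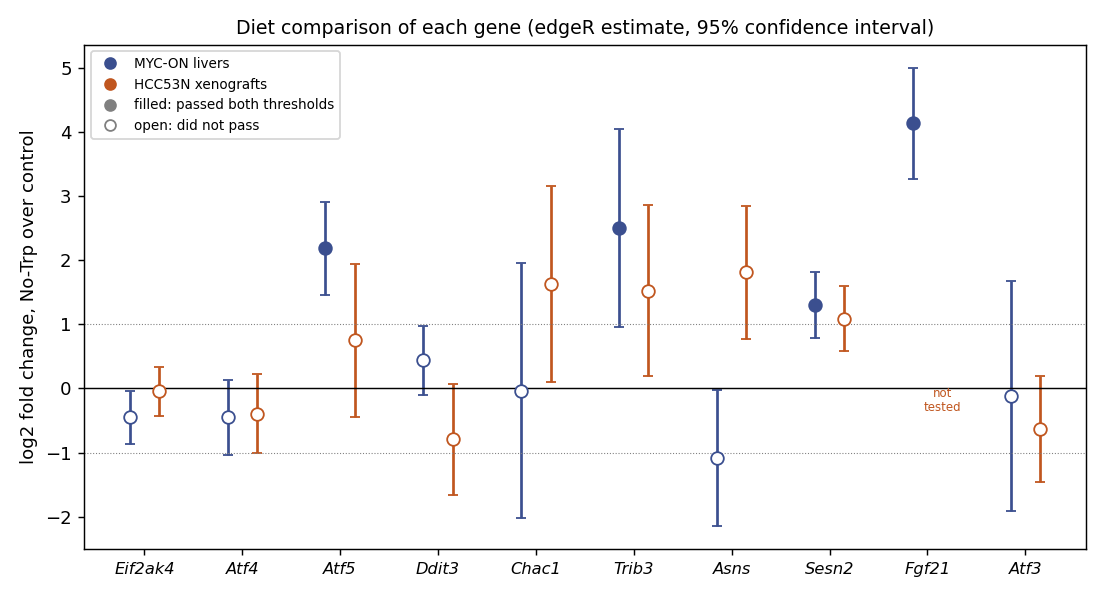
Log2 fold change of each gene, No-Trp over control diet, with its 95% confidence interval from edgeR's quasi-likelihood fit, in MYC-ON livers (blue) and HCC53N xenografts (orange), 3 mice per group. Filled points passed both thresholds, which 4 liver genes and no xenograft gene did. Asns lies below 0 in livers and above 0 in xenografts, and Fgf21 was not tested in xenografts for lack of reads.

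The kinase and the central factor were not called in either model. Gene positions are GENCODE's on GRCm38, the assembly behind the mm10 build used for counting. Eif2ak4 (chr2:118388618-118475234, + strand), which encodes GCN2, was at 25.7, 31.4 and 33.2 CPM in control livers 101, 102 and 103 and at 20.8, 23.8 and 20.9 CPM in No-Trp livers 105, 107 and 108. Every No-Trp liver was below every control liver by a small margin. The log2 fold change was −0.45 ± 0.18 (SE, n = 3 mice each, edgeR adjusted p = 0.0996). In the xenografts it was at 33.8, 30.3 and 31.1 CPM in control mice 41, 43 and 40 and at 33.1, 34.8 and 25.1 CPM in No-Trp mice 35, 36 and 37. These groups overlapped, and the change was −0.05 ± 0.17 (SE, edgeR adjusted p = 0.919).

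Atf4 (chr15:80255184-80257541, + strand), the factor through which GCN2 acts, was at 268, 147 and 187 CPM in control livers 101, 102 and 103 and at 141, 169 and 127 CPM in No-Trp livers 105, 107 and 108. No-Trp mouse 107 lay among the controls, so the groups overlapped, and the log2 fold change was −0.45 ± 0.25 (SE, edgeR adjusted p = 0.213), with a 95% confidence interval of −1.03 to 0.14. Atf4 mRNA in control xenografts was nearly the same in every mouse, at 436, 410 and 436 CPM in 41, 43 and 40. On the No-Trp diet it spread from 216 CPM in mouse 35 through 283 CPM in mouse 37 to 483 CPM in mouse 36. The xenograft change was −0.40 ± 0.27 (SE, edgeR adjusted p = 0.498), with an interval of −1.01 to 0.22. A rise of Atf4 mRNA by the fold threshold lies outside both intervals.

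Atf5 encodes a bZIP factor related to ATF4 that is itself an ATF4 target and is abundant in liver. In control livers 101, 102 and 103 it was at 341, 210 and 179 CPM, and in No-Trp livers 105, 107 and 108 at 972, 1313 and 991 CPM. The lowest No-Trp liver was well above the highest control liver. The gene rose by 2.18 ± 0.31 on the log2 scale (SE, n = 3 each, edgeR adjusted p = 0.0142), a 4.55-fold difference. In control xenografts 41, 43 and 40 it was at 51.6, 48.1 and 108 CPM, and in No-Trp xenografts 35, 36 and 37 at 59.0, 199 and 93.8 CPM. Mouse 36 alone stood above the controls, and the change was 0.75 ± 0.50 (SE, edgeR adjusted p = 0.502). Atf5 (chr7:44812256-44816658, − strand) shares 164 exon bases with genes on the other strand, Nup62 and Il4i1, and the strand setting of the counting is not given in the sources used here. Nup62 fell by 1.46 on the log2 scale in the livers (edgeR adjusted p = 0.0202), and Il4i1 was at most 0.307 CPM in any library. Without control liver 103 the Atf5 call in livers was lost (log2 1.99, edgeR adjusted p = 0.0833).

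**Figure D2:**
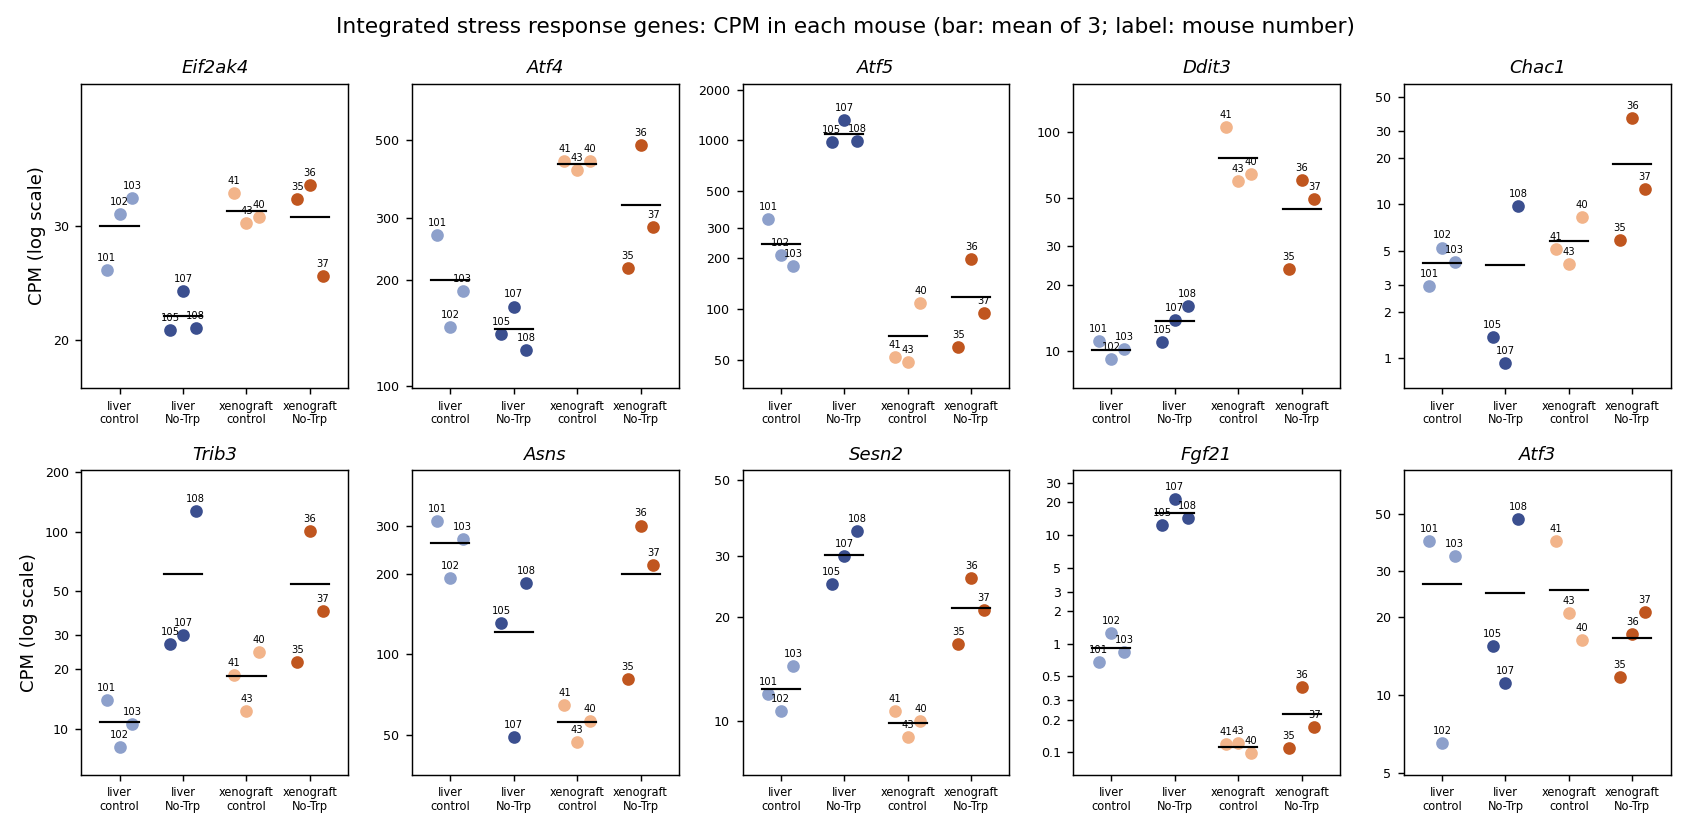
CPM on a log axis for each of the 10 genes in each of 12 mice, by group, with mouse numbers beside the points and a bar at the mean of 3. Atf5, Sesn2 and Fgf21 separate the liver diets with little spread, and Trib3 separates them with mouse 108 far above the rest. Among No-Trp xenografts mouse 36 is the highest and mouse 35 the lowest for Atf4, Atf5, Ddit3, Chac1, Trib3, Asns and Sesn2.

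Ddit3 encodes CHOP, a factor induced by ATF4 and by endoplasmic reticulum stress. Its liver levels were low, at 11.0, 9.18 and 10.2 CPM in controls 101, 102 and 103 and at 10.9, 13.9 and 16.1 CPM in No-Trp mice 105, 107 and 108. The groups overlapped only through mouse 105, which stood just under control 101, and the log2 fold change was 0.44 ± 0.23 (SE, edgeR adjusted p = 0.185). The xenografts held more, at 105, 59.4 and 64.5 CPM in controls 41, 43 and 40 and 23.5, 60.5 and 49.1 CPM in No-Trp mice 35, 36 and 37. With mouse 36 above control 43, the groups overlapped, and the change was −0.79 ± 0.37 (SE, edgeR adjusted p = 0.331). Ddit3 (chr10:127290774-127296288, + strand) shares 186 exon bases with other annotated entries at the locus, Mars on the other strand among them, so a part of its reads may be assigned elsewhere.

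Trib3 (chr2:152337422-152344032, − strand) encodes a pseudokinase that ATF4 and CHOP induce and that binds ATF4 as feedback. It was at 14.0, 8.06 and 10.6 CPM in control livers 101, 102 and 103 and at 26.8, 29.8 and 127 CPM in No-Trp livers 105, 107 and 108. Every No-Trp liver was above every control liver, and mouse 108 stood far above its group mates. It rose by 2.50 ± 0.65 on the log2 scale (SE, edgeR adjusted p = 0.0357). Without mouse 108 the rise was 1.40 and still called (edgeR adjusted p = 0.0346), while leaving out any one of the other 5 liver libraries (101, 102, 103, 105 or 107) gave 2.32 to 2.87 and an adjusted p of 0.0515 to 0.112. In control xenografts 41, 43 and 40 it was at 18.7, 12.4 and 24.5 CPM, and in No-Trp xenografts 35, 36 and 37 at 21.9, 100.6 and 39.5 CPM. Mouse 35 lay among the controls, and the change was 1.53 ± 0.56 (SE, edgeR adjusted p = 0.249). Without mouse 36 it was 0.72.

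Chac1 (chr2:119351229-119354381, + strand) encodes an enzyme that degrades glutathione and is induced by ATF4. Control livers 101, 102 and 103 had 2.94, 5.24 and 4.19 CPM, and No-Trp livers 105, 107 and 108 had 1.37, 0.922 and 9.79 CPM. Mice 105 and 107 were below every control liver and mouse 108 above every one. The log2 fold change was accordingly −0.04 ± 0.84 (SE, edgeR adjusted p = 0.977), and without mouse 108 it was −1.82 and called lower (edgeR adjusted p = 0.0413, all alternatives giving 0.0413 to 0.986). Control xenografts 41, 43 and 40 had 5.14, 4.08 and 8.23 CPM, and No-Trp xenografts 35, 36 and 37 had 5.84, 36.3 and 12.6 CPM. Mice 36 and 37 were above the controls and mouse 35 among them. The change was 1.63 ± 0.65 (SE, edgeR adjusted p = 0.272), and 0.66 without mouse 36.

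Atf3, a stress-induced factor of the same family, moved little in comparison with its spread. Its liver levels were 39.4, 6.53 and 34.5 CPM in controls 101, 102 and 103 and 15.4, 11.1 and 47.6 CPM in No-Trp mice 105, 107 and 108. Each group held a mouse far from the others, 102 among the controls and 108 on the No-Trp diet, and the log2 fold change was −0.11 ± 0.76 (SE, edgeR adjusted p = 0.923). In the xenografts it was at 39.4, 20.6 and 16.3 CPM in controls 41, 43 and 40 and at 11.7, 17.2 and 20.9 CPM in No-Trp mice 35, 36 and 37, a change of −0.63 ± 0.36 (SE, edgeR adjusted p = 0.422). Those groups overlapped. Atf3 lies at chr1:191170296-191218039 on the − strand. The RefSeq start of its printed promoter lies inside this span, and the region at the span's 5′ end was not searched for the element. The sign of the Atf3 change in livers turned with single libraries.

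Asns, which encodes asparagine synthetase and is a widely used reporter of amino acid shortage, differed in sign between the tumor models. It was at 315, 193 and 269 CPM in control livers 101, 102 and 103 and at 131, 49.3 and 184 CPM in No-Trp livers 105, 107 and 108. All No-Trp livers were lower than all control livers, though 108 was close to control 102. The log2 fold change was −1.08 ± 0.45 (SE, edgeR adjusted p = 0.116), so Asns was not called in livers. In control xenografts 41, 43 and 40 it was at 65.0, 47.1 and 56.7 CPM, and in No-Trp xenografts 35, 36 and 37 at 81.1, 302 and 215 CPM. All No-Trp xenografts were higher than all controls, mouse 35 by the least. The change was 1.82 ± 0.44 (SE, edgeR adjusted p = 0.132). Without mouse 35 it was 2.20 and called by edgeR (adjusted p = 0.0175), and DESeq2 called it with all mice in (1.83, adjusted p = 0.000180), the alternatives spanning 0.000180 to 0.377. Asns lies at chr6:7675169-7693254 on the − strand.

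Sesn2 (chr4:132492032-132510501, − strand) encodes Sestrin 2, an ATF4 target that restrains mTORC1 when amino acids are short, and its change was of like size in both models. Control livers 101, 102 and 103 had 11.9, 10.6 and 14.5 CPM, and No-Trp livers 105, 107 and 108 had 24.9, 30.1 and 35.6 CPM. The groups did not overlap. It rose by 1.30 ± 0.22 on the log2 scale (SE, edgeR adjusted p = 0.0178), although the call was lost without control 101 (adjusted p = 0.0554) or control 103 (adjusted p = 0.0833). In the xenografts it was at 10.6, 8.95 and 10 CPM in controls 41, 43 and 40 and at 16.6, 26.0 and 20.9 CPM in No-Trp mice 35, 36 and 37. Again the groups did not overlap. The xenograft change was 1.09 ± 0.22 (SE, edgeR adjusted p = 0.0778), and DESeq2 gave 1.10 (adjusted p = 0.00186, the alternatives spanning 0.00186 to 0.300).

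Fgf21 (chr7:45613886-45615490, − strand), the liver hormone, had the largest liver fold change of the 10 genes. Control livers 101, 102 and 103 had 0.675, 1.24 and 0.838 CPM, from 14, 22 and 21 reads. No-Trp livers 105, 107 and 108 had 12.2, 21.3 and 14.3 CPM, from 214, 347 and 184 reads. The lowest No-Trp liver was far above the highest control liver, and the gene rose by 4.14 ± 0.37 on the log2 scale (SE, edgeR adjusted p = 0.00713), or 17.6-fold. Without control liver 103 the rise was 4.06 and not called (adjusted p = 0.0727). Xenografts gave 3, 2 and 2 reads in controls 41, 43 and 40 and 3, 12 and 4 in No-Trp mice 35, 36 and 37, too few for the test. Summed over mice and set against scaled depth, the No-Trp to control ratio in xenografts was 2.07, with an exact 95% interval of 0.833 to 5.83 that covers counting error only.

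Leaving out control liver 103 removed nearly all liver calls, since 7 genes of 14240 were then called higher and 1 lower. In the 4 livers without a resubmission mark, 0 of 14198 genes were called by edgeR, though 4948 had an unadjusted p under 0.05, and Fgf21, Atf5, Trib3 and Sesn2 still differed by 4.02, 2.55, 1.59 and 1.12 on the log2 scale. With the mark as a covariate all 4 were called.

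Whether the diet acted differently in the models was tested as the difference of the log2 fold changes, xenograft minus liver, in 1 fit over all 12 libraries. Of the 10 genes, 2 passed both thresholds, Asns and Fgf21. Across 15472 genes, 6.7% were called toward the xenografts and 6.01% toward the livers, 1036 and 930 genes that became 1825 and 437 with library totals. Asns was called toward the xenografts by 2.92 ± 0.69 (SE, edgeR adjusted p = 0.0205). Fgf21 stood at −3.13 ± 0.79 (SE, edgeR adjusted p = 0.0237), but with 2 to 12 reads per xenograft it passed the filter on low counts through the livers, and this value is given as a description rather than as a test of its response in xenografts. For Ddit3 the difference was −1.21 ± 0.45 (SE, edgeR adjusted p = 0.0867), which DESeq2 called at −1.29 (adjusted p = 0.0401, the alternatives spanning 0.0401 to 0.387). For Atf5 it was −1.41 ± 0.62 (SE, edgeR adjusted p = 0.140), and for Trib3 −0.95 ± 0.91 (edgeR adjusted p = 0.507). For Sesn2 it was −0.19, with a 95% confidence interval of −0.86 to 0.49. The Asns difference lost its call without xenograft 43 (2.81, edgeR adjusted p = 0.0506), and the Fgf21 difference without liver 103, xenograft 41 or xenograft 43 (adjusted p of 0.0553 to 0.0613). Atf5 was called without xenograft 36 (−2.02, edgeR adjusted p = 0.0427, the alternatives spanning 0.0427 to 0.313), and Chac1 without liver 108 (3.48, edgeR adjusted p = 0.0293, the alternatives spanning 0.0293 to 0.712).

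**Figure D3:**
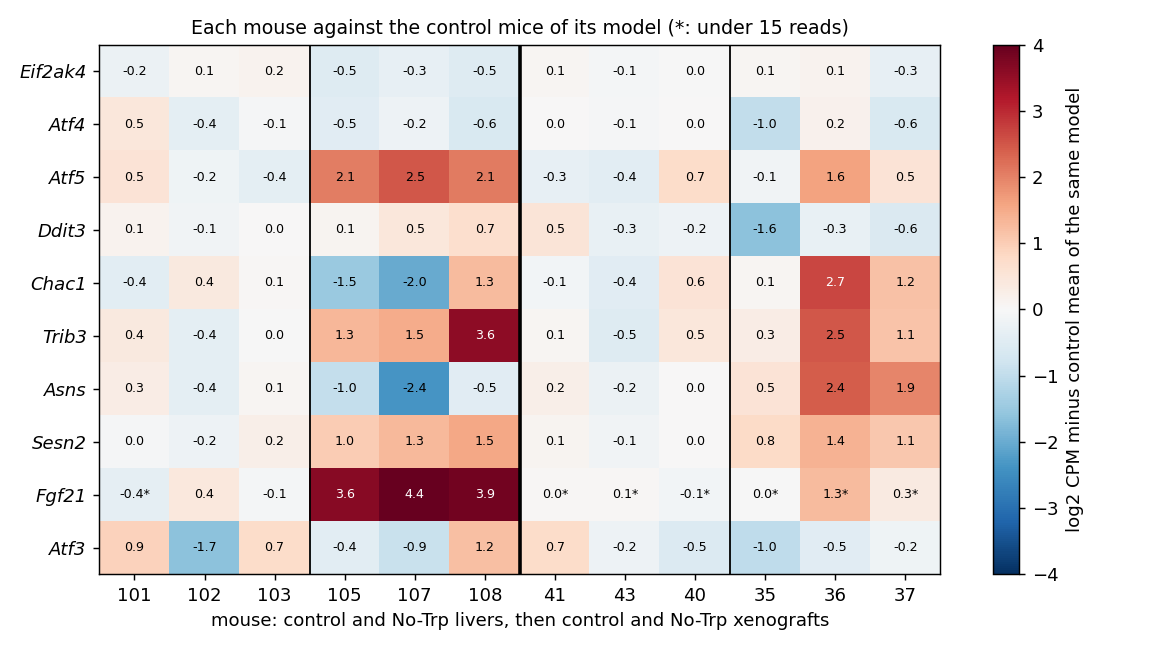
Log2 CPM of each gene in each mouse minus the control mean of the same model, in red where higher and blue where lower, with asterisks where a library held under 15 reads. The No-Trp livers are red for Atf5, Trib3, Sesn2 and Fgf21 and blue for Asns, and xenografts 36 and 37 are red for Chac1, Trib3, Asns and Sesn2 while xenograft 35 is blue for Atf4, Ddit3 and Atf3.

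The No-Trp mice differed among themselves, unequally by gene. Relative to the control mean of the same model, xenograft 36 stood at 2.68 for Chac1, 2.49 for Trib3, 2.44 for Asns and 1.62 for Atf5 on the log2 CPM scale. Xenograft 37 had 1.16, 1.14, 1.94 and 0.54 for the same genes. Xenograft 35 had 0.07, 0.29, 0.54 and −0.13, and was lowest for Ddit3 at −1.65. Among livers, mouse 108 stood at 3.57 for Trib3, 1.27 for Chac1 and 1.19 for Atf3, whereas mouse 107 had 1.48, −2.01 and −0.89 and the lowest Asns of the livers, at −2.36. Sesn2 stayed within 1.02 to 1.53 in the No-Trp livers and 0.75 to 1.39 in the No-Trp xenografts.

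On the control diet the models started from different levels, and 5 of the 10 genes were called between them, 2 higher and 3 lower in xenografts. Fgf21, among the latter, passed the filter on low counts through the livers. Over all 15472 genes tested, 23.3% were called higher and 20.2% lower in the xenografts. The counts among the 10 genes lie near these shares and are not particular to them. Ddit3 was higher by 2.91 ± 0.34 (SE, edgeR adjusted p = 1.55e-05) and Atf4 by 1.09 ± 0.28 (SE, edgeR adjusted p = 0.00559) on the log2 scale. Asns was lower by 4.61-fold (edgeR adjusted p = 0.00271) and Atf5 by 3.52-fold (edgeR adjusted p = 0.00435). Fgf21 had 57 reads in the 3 control livers and 7 in the 3 control xenografts, a ratio of 7.93 with an exact 95% interval of 3.61 to 20.6 for counting error. The Atf4 call was lost without liver 102 (0.87, edgeR adjusted p = 0.0284), by the fold threshold. In libraries without the resubmission mark, which leave 1 control xenograft assumed to vary like the other groups, Atf5 was at −0.85 (adjusted p = 0.334) and Asns at −2.03 (adjusted p = 0.103). Strain, sex, host, tumor origin and site differ together between the models and cannot be told apart.

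Per length of exon, as FPKM, the order of the 10 genes differed between models and diets. In control livers Atf5 led at 122 ± 43.1, followed by Asns at 94.7 ± 22.6 and Atf4 at 85.2 ± 26.2 FPKM (SD, n = 3), 3 levels within each other's spread. On the No-Trp diet Atf5 reached 548 ± 96.3 FPKM in livers and stood apart from Atf4 at 61.8 ± 8.95 and Asns at 44.4 ± 24.9. Fgf21 was last in control livers at 0.965 ± 0.305 FPKM and the fifth in No-Trp livers at 16.8 ± 5.02. In control xenografts Atf4 led at 181 ± 6.25 FPKM, with Ddit3 at 44.5 ± 14.6 and Atf5 at 34.7 ± 16.8 within each other's spread. On the No-Trp diet Atf4 still led the xenografts, at 139 ± 58.9 FPKM, and Asns came next at 72.9 ± 40.7, a pair whose spreads met. GCN2 mRNA stayed low in every group, at 2.93 to 4.25 FPKM.

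The wider pathway was read from 7 lists of 94 further genes. Among the eIF2 kinases and regulators 0 of 18 were called in either model by edgeR or DESeq2, with 10 in livers and 1 in xenografts at an unadjusted p under 0.05, a level that 41.8% and 16.9% of all genes passed. In livers their median was −0.38, with 12 of 18 below 0. The lowest value was that of Eif2b3, a subunit of the eIF2B exchange factor, at −0.77 ± 0.29 (SE, edgeR adjusted p = 0.0912). In livers 5 of the 18 met the adjusted p threshold, where 3570 of all 14122 genes did. These were Gcn1l1, Eif2b1, Eif2b4, Eif2b5 and Eif2a, all lower, at −0.71 to −0.56, and short of the fold threshold. In xenografts the median was 0.07, and the largest value was that of Gcn1l1, which encodes the GCN2 activator GCN1, at 0.44 ± 0.17 (SE, edgeR adjusted p = 0.244). Gcn1l1 was at −0.64 in livers, and its difference between models was called (1.11 ± 0.24, edgeR adjusted p = 0.0150).

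A loose list of 14 genes held partners and feedback factors of ATF4 and also genes that are neither, such as Vldlr and Klf15. Of these, 4 were called higher and 0 lower in livers (median 0.76), where 9.28% and 7.27% of all genes were. The 4 were Cebpb, Cebpa, Vldlr and Klf15. Vldlr, a lipoprotein receptor, rose by 3.42 ± 0.36 and Cebpb, a C/EBP partner, by 1.90 ± 0.27 on the log2 scale (SE, edgeR adjusted p = 0.0108 and 0.0142). Cebpb went from 30.8, 40.2 and 33.1 CPM in control livers to 107, 179 and 97.7 CPM in No-Trp livers. In xenografts 0 were called higher and 2 lower (median −0.18), where 0.245% and 0.116% of all genes were. Gadd45a, a growth arrest gene, fell by 1.99 ± 0.22 and Cebpb by 1.25 ± 0.16 (SE, edgeR adjusted p = 0.0137 and 0.0235). Cebpb was at 76.6, 71.1 and 69.8 CPM in control xenografts 41, 43 and 40 and at 28.9, 36.2 and 27.1 CPM in No-Trp xenografts 35, 36 and 37, with no overlap, and its difference between models was −3.12 ± 0.32 (SE, edgeR adjusted p = 0.00165).

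**Figure D4:**
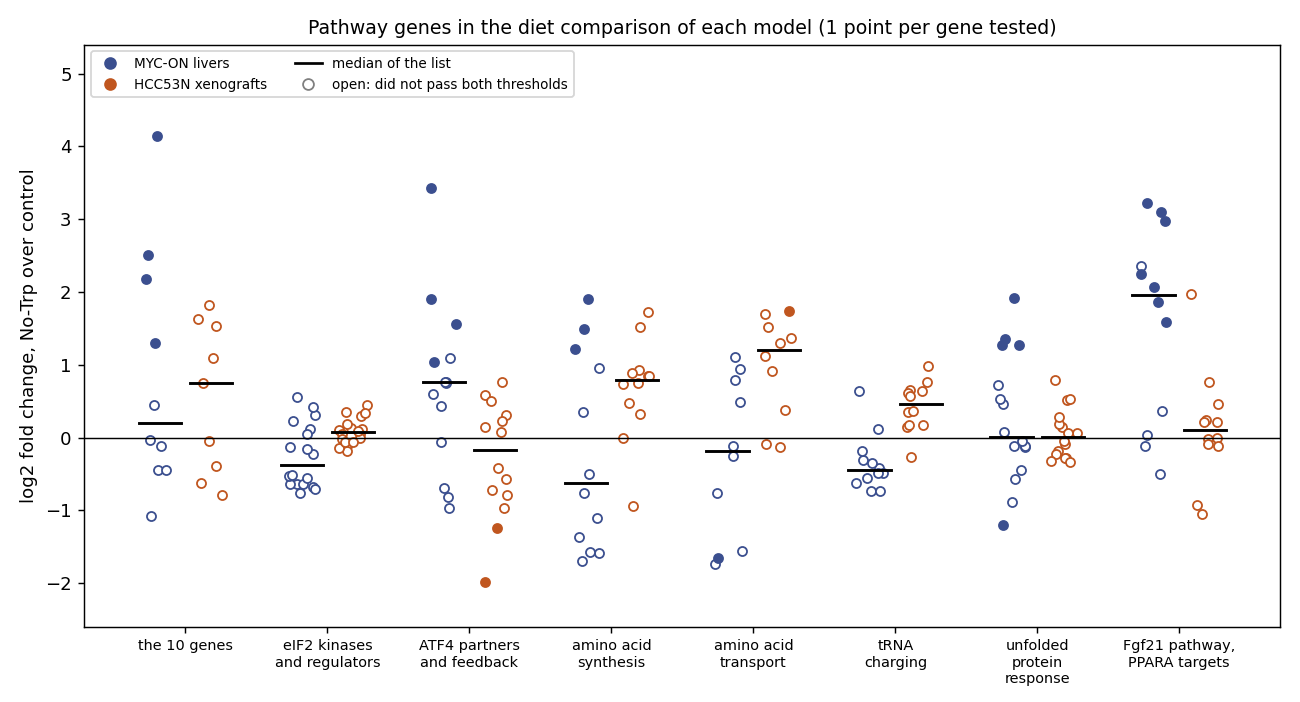
Log2 fold change, No-Trp over control diet, for every tested gene of the 10-gene list and 7 pathway lists, in livers (blue) and xenografts (orange), with a bar at each list's median and filled points for genes that passed both thresholds. The medians of amino acid synthesis, transport and tRNA charging lie below 0 in livers (−0.63, −0.19 and −0.45) and above 0 in xenografts (0.80, 1.21 and 0.47).

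Targets of ATF4 in amino acid metabolism split within the livers. Of 12 genes for amino acid synthesis, edgeR called 3 higher and 0 lower in livers, beside 9.28% and 7.27% of all genes. DESeq2 called 3 higher and 4 lower there, beside 8.72% higher and 7.4% lower of all genes with a count. The aminotransferases Got1 and Gpt2 rose by 1.90 ± 0.30 and 1.49 ± 0.27 (SE, edgeR adjusted p = 0.0168 and 0.0196). Over the list the liver values ran from −1.70 to 1.90, with 7 of 12 below 0. In the xenografts 0 of 12 were called by edgeR, 7 had an unadjusted p under 0.05 (16.9% of all genes) and DESeq2 called 1 higher. Of those 7, Cbs, an enzyme of cysteine synthesis, was below 0, at −0.95 ± 0.32 (SE, edgeR adjusted p = 0.209). Their median was 0.80, 10 of 12 were above 0, and the largest value was that of Cth, a cysteine-producing enzyme, at 1.72 ± 0.67 (SE, edgeR adjusted p = 0.268). For the differences between models, 3 of the 12 were called toward the xenografts and 2 toward the livers. Of all genes, 6.7% and 6.01% were.

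Among amino acid transporters the list's median was −0.19 in livers and 1.21 in xenografts. In livers 1 of 10 was called lower and 0 higher by edgeR, where 7.27% and 9.28% of all genes were. DESeq2 called 1 higher and 3 lower there, beside 8.72% and 7.4% of all genes with a count. Slc7a1, a cationic amino acid transporter, fell by 1.66 ± 0.49 (SE, edgeR adjusted p = 0.0467). In xenografts 1 of 10 was called higher and 0 lower by edgeR, where 0.245% and 0.116% of all genes were. DESeq2 called 5 higher and 0 lower there, beside 1.28% and 0.666% of all genes with a count. Slc1a5, a neutral amino acid transporter, rose by 1.74 ± 0.26 (SE, edgeR adjusted p = 0.0436), from 31.5, 22.5 and 39.6 CPM in control xenografts 41, 43 and 40 to 76.7, 108 and 130 CPM in No-Trp xenografts 35, 36 and 37. It was at −1.73 ± 0.55 in livers (SE, edgeR adjusted p = 0.0591), and its difference between models was called (3.49 ± 0.67, edgeR adjusted p = 0.0109). Of the list, 3 were called toward the xenografts in that test and 0 toward the livers, where 6.7% and 6.01% of all genes were.

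For tRNA charging, 0 of 12 synthetase genes were called in either model by edgeR or DESeq2, with 5 in livers and 5 in xenografts at an unadjusted p under 0.05. In livers that is the share of all genes, 41.8%, and in xenografts all genes gave 16.9%. In livers 10 of 12 were below 0, the lowest being Iars, for isoleucine, at −0.73 ± 0.22 (SE, edgeR adjusted p = 0.0462), short of the fold threshold. In xenografts 11 of 12 were above 0, the highest being Wars, for tryptophan itself, at 0.98 ± 0.49 (SE, edgeR adjusted p = 0.363). Wars went from 106, 75.4 and 185 CPM in control xenografts 41, 43 and 40 to 183, 414 and 135 CPM in No-Trp xenografts 35, 36 and 37, and the groups overlapped.

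Of 16 genes of the unfolded protein response, the other main route to CHOP, 4 were called higher and 1 lower in livers. Their median was 0.01, and of all genes tested 9.28% were called higher and 7.27% lower. Herpud1, which serves degradation at the endoplasmic reticulum, rose by 1.91 ± 0.43 and the chaperone partner Dnajb9 by 1.36 ± 0.39, while Sdf2l1 fell by 1.21 ± 0.19 (SE, edgeR adjusted p = 0.0253, 0.0423 and 0.0163). In xenografts 0 of 16 were called by edgeR or DESeq2, 2 had an unadjusted p under 0.05 (16.9% of all genes), the median was 0.01, and the largest value was that of the sensor Ern1 at 0.79 ± 0.26 (SE, edgeR adjusted p = 0.189). The fasting factor PPARA is another known driver of Fgf21. A list of 12 genes held Ppara itself, PPARA targets and the FGF21 receptor genes Klb, Fgfr1 and Fgfr4. Of these, 7 were called higher and 0 lower in livers (median 1.96), where 9.28% and 7.27% of all genes were. Ppara was among the 7. Pdk4, a brake on glucose oxidation, rose by 3.23 ± 0.76 and Ehhadh, of peroxisomal fat oxidation, by 3.10 ± 0.58 (SE, edgeR adjusted p = 0.0291 and 0.0201). In xenografts 0 of 12 were called by edgeR, 4 had an unadjusted p under 0.05 (16.9% of all genes), DESeq2 called 1 higher and 1 lower, and Klb, the FGF21 co-receptor, had the largest value at 1.97 ± 0.62 (SE, edgeR adjusted p = 0.179). Its level there was low, at 0.487 to 1.52 CPM in control and 1.78 to 5.58 CPM in No-Trp xenografts, against 56.1 to 73.6 CPM in the livers.

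Cell type markers moved with the diets in both models. Among all genes edgeR called 9.28% higher and 7.27% lower in livers, and 0.245% and 0.116% in xenografts. Of all genes tested in xenografts, 10.7% stood higher in every No-Trp mouse than in every control. Of 10 hepatocyte markers 3 were called higher in livers and 7 did not pass, with overlapping groups for Apoa1, Cyp2e1 and Serpina1a. Their summed level was 12340 to 43016 CPM in control livers and 56055 to 133568 CPM in No-Trp livers, highest in mouse 107, which had the lowest Asns. Of 6 erythroid markers tested 5 were called lower, from a sum of 58.9 to 587 CPM down to 16.0 to 25.7 CPM. The hemoglobin genes Hbb-bs, Hbb-bt, Hba-a1 and Hba-a2, also listed, had at most 0.155 CPM in any library and were not tested. In No-Trp xenografts 3 of 6 adipocyte markers were called higher and all 6 stood above every control, with a sum of 389 to 822 CPM against 14.2 to 69.1 CPM. Adipoq, which defines adipocytes, was at 35.2, 18.8 and 57.6 CPM in xenografts 35, 36 and 37 and at 0.784 to 2.19 CPM in controls. In No-Trp xenografts 35, 36 and 37 the adipocyte sum was 504, 389 and 822 CPM. Among them Asns, Trib3 and Chac1 were highest in mouse 36 and lowest in mouse 35. Endothelial marker sums did not overlap between diets in either model, at 104 to 198 CPM in control livers and 217 to 353 CPM in No-Trp livers, and 55.1 to 136 CPM in control xenografts and 138 to 224 CPM in No-Trp xenografts. Of these markers Clec4g and Tek were called higher in livers (2 of 8), and none of 8 in xenografts. In livers 2 of 8 were below 0, Emcn at −0.80 and Cdh5 at −0.09. In xenografts 2 of 8 were below 0, Clec4g at −0.63 and Emcn at −0.26. The largest xenograft value was that of Lyve1, at 2.65 ± 0.41 (SE, edgeR adjusted p = 0.0506). The stellate and fibroblast markers Dcn and Reln were called higher in livers (2 of 8), where the sums overlapped between diets. Of the 8, 4 were below 0 and not called, Col1a2 at −0.51, Col3a1 at −0.33, Col1a1 at −0.30 and Pdgfrb at −0.24. Control xenografts had a macrophage sum of 95.2 to 122.8 CPM and No-Trp xenografts one of 123.0 to 182 CPM. The lymphocyte and neutrophil sum was 30.6 to 34.2 CPM in the former and 41.6 to 48.9 CPM in the latter. In livers edgeR called no macrophage, cholangiocyte, lymphocyte or neutrophil marker and their sums overlapped between diets. At an unadjusted p under 0.05 there were 2 macrophage markers and 0 of the others, and DESeq2 called 1 lymphocyte or neutrophil marker lower. Of 3 adipocyte markers tested in livers Cidec was called higher and Fabp4 lower. In xenografts edgeR called none of the cell type markers other than those of adipocytes. At an unadjusted p under 0.05 there were 3 cholangiocyte, 2 macrophage, 2 lymphocyte or neutrophil, 1 endothelial, 1 stellate or fibroblast, 1 hepatocyte and 0 erythroid markers, and DESeq2 called 1 macrophage, 1 endothelial, 1 stellate or fibroblast and 1 hepatocyte marker higher. The part of these cell types in the 10 genes' changes was not tested. Fewer cells of a type and less RNA per cell cannot be told apart in bulk tissue.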

How the data were processed

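Poly(A) RNA of 12 tumors or tumor-bearing livers was sequenced, and the deposited values are raw read counts per gene symbol. The authors made them by trimming with Trim Galore, alignment to mm10 with STAR 2.7.2b and counting with HTSeq, with SAMtools 1.9 among the submitters' processing notes. The strand setting and the rule for overlapping genes are not given in the sources used here. Rows that name no gene held 24.7% to 39.4% of each library's tally and were left out. Depth was 14660963 to 26085349 counted reads per library, so the lowest genes carry the widest counting error.

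Counts were fitted in R 4.3.3 with edgeR 4.0.16 (TMM factors, filterByExpr, robust quasi-likelihood F test, two-sided) and p-values were adjusted by Benjamini-Hochberg over all genes tested. Each diet comparison was fitted on its own 6 libraries. The difference between models and the comparison on the control diet used all 12. Genes were called where the adjusted p was 0.05 or less and the log2 change 1 or more either way, the thresholds of the study's methods. FPKM was computed here from exon lengths. Alternatives were DESeq2 1.42.0, other scalings and filters, the resubmission mark and each library left out. The edgeR steps were tested on simulated data. With 3 mice a group an exact permutation test of 1 gene cannot give a p under 0.1, so none was run.

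The 10 genes, the pathway lists and the markers were chosen with earlier results of these data known. From each pathway list, up to 2 called genes with the largest rise and up to 2 with the largest fall were named per diet comparison or, with none called, the gene with the largest change. Other genes named, such as Trp53, Nras, Nup62, Il4i1, Rn45s, Adipoq, Wars and Slc1a5 or Gcn1l1 in a second comparison, were chosen after their values were seen. P-values measure the spread between mice.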

Additional observations from a re-analysis of the deposited data

Results flagged for a closer look

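The diet response was compared between the models as a difference, xenograft minus liver. Asns differed by 2.92 on the log2 scale (SE 0.69, 95% confidence interval 1.40 to 4.44, edgeR adjusted p = 0.0205), with all 3 No-Trp livers under all 3 control livers and all 3 No-Trp xenografts over all 3 control xenografts. Fgf21 passed the same thresholds at −3.13 (SE 0.79, edgeR adjusted p = 0.0237), but with 2 to 12 reads in each xenograft it passed the filter on low counts through the livers, so the value does not show that its response differed between the models.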

How the results depend on the processing

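Of 683 refitted gene values, 620 kept their direction and side of the thresholds, 25 lost a call, 9 gained one and 29 changed sign. The calls in livers numbered 4 of 10, 2 with library totals, 0 in libraries without the resubmission mark and 0 to 5 with single libraries left out. Library totals moved the median of all genes by −0.29 in livers, 0.11 in xenografts, 0.37 for the difference between models and 0.16 on the control diet. In xenografts 0 became 4 with DESeq2 and 0 to 1 with single libraries left out. For the difference between models 2 became 1 with at least 10 counts in every library, which left Fgf21 untested, 0 without the resubmission mark and 0 to 3 with single libraries left out. Between models on the control diet 5 became 3 without the mark. That restriction leaves fewer mice, and where it left 1 sample in an arm, that sample was assumed to vary like the other groups.

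Signs turned among values that were not called. With library totals Eif2ak4 in xenografts was 0.0685, the Sesn2 difference between models 0.20 and Atf3 on the control diet 0.0752. Atf3 in xenografts was 0.0195 with the mark as a covariate and 0.0169 without marked libraries, and its difference between models 0.55 and 0.66. The Atf4 difference between models was −0.0167 with RLE factors, −0.0160 with DESeq2 and −0.30 without marked libraries, and Eif2ak4 on the control diet was −0.0565 without them. The cause was not tested. With single libraries left out, liver values ran from −0.998 to 0.26 for Atf3 and −1.82 to 0.43 for Chac1, and Eif2ak4 in xenografts from −0.133 to 0.0922. Differences between models ran from −0.31 to 0.31 for Atf4, −0.88 to 0.39 for Atf3 and −1.77 to 0.16 for Trib3, and control-diet values from −0.0275 to 0.15 for Eif2ak4 and −0.57 to 0.30 for Atf3. No paired analysis was possible because the animal numbers differ between groups.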
